A study of Mus musculus with 12 samples.

Results

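The mitochondrially encoded transcripts are the RNAs made from the mitochondrial genome itself. They were taken as the rows of the count table whose gene symbol starts with "mt-", which gave 37 of 55401 genes. The 37 were 13 genes for proteins of the respiratory chain, 2 for the rRNAs of the mitochondrial ribosome and 22 for tRNAs. All 37 identifiers matched genes of the mitochondrial chromosome in the GENCODE vM21 annotation of the mouse build GRCm38. The rule used only the symbols, not any measured value.

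The mitochondrial genome is a small circle that is transcribed from both strands into long RNAs spanning many genes. These are cut largely at the tRNAs, which lie between the other genes, and the freed mRNAs and rRNAs then differ in how long they last. The polymerase POLRMT and the packaging and initiation factor TFAM drive this transcription. In liver, hepatocytes are rich in mitochondria, and acetaminophen taken in overdose gives a reactive metabolite that binds mitochondrial proteins.

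RNA from whole liver of male mice, 7 to 10 weeks old, was sequenced in 4 groups of 3 libraries. FBXL5ΔDC mice (Cd11c-Cre/Fbxl5F/F) carried floxed Fbxl5 alleles and a Cre recombinase driven by the promoter of Cd11c, a marker chiefly of dendritic cells, while control mice (FBXL5F/F) carried the floxed alleles without Cre. FBXL5 senses iron and, within a ubiquitin ligase, marks the iron regulatory proteins for destruction. Each genotype was sampled 6 h after intraperitoneal acetaminophen and without acetaminophen, called 0 h here. The protocol names doses of 300 or 500 mg/kg, and not which of them was used here, and a 16 h fast ahead of injection. It does not say whether fasting applied to mice at 0 h. Nothing in the labels says that the libraries of a group came from separate animals, so p-values measure only the spread between these samples, which may be technical.

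Total counts were 67173096 to 72512319 per library, and the deposited estimated counts were scaled by TMM, which corrects library totals for composition, to CPM, the standard unit of counts relative to library size. Fbxl5 averaged 18.6 ± 5.25 CPM in FBXL5ΔDC livers at 6 h and 15.8 ± 3.01 CPM in control livers at 6 h (SD, n = 3), with adjusted p = 0.672 (edgeR). Whole-liver RNA cannot show a deletion limited to Cd11c-expressing cells. Itgax, which encodes CD11c, stayed under 0.584 CPM in all 12 libraries. All 11 general hepatocyte genes looked at were detected in every library, with summed levels of 92423 to 182976 CPM. On the first principal component of all tested genes (39.8% of the variance), replicate 3 of the control livers at 6 h lay at -86.8. The FBXL5ΔDC livers at 6 h lay between -107 and -97.7, and the other control livers at 6 h at 8.18 and 9.46. Most counts of called genes in comparisons that involve control livers at 6 h are therefore also given without that library.

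The sequences of 5 tRNA genes are shown because the tRNA results turn on them. mt-Tw and mt-Tl1 had the largest called rises, mt-Ti was the sole tRNA called lower, and mt-Te and mt-Ts1 had the highest tRNA counts. Letters are those of the GENCODE vM21 transcripts (GRCm38), 5′ to 3′ on the gene's own strand, with the anticodon in capitals.
mt-Tl1, for leucine, chrM:2676-2750, plus strand, directly between mt-Rnr2 and mt-Nd1:
mt-Tl1: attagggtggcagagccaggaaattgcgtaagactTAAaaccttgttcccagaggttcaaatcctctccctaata
mt-Tw, for tryptophan, chrM:4950-5016, plus strand, sharing its first 2 bases with the end of mt-Nd2:
mt-Tw: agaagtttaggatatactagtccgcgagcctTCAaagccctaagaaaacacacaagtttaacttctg
mt-Ti, for isoleucine, chrM:3706-3774, plus strand, sharing 2 bases with mt-Nd1 and 3 bases with mt-Tq on the opposite strand:
mt-Ti: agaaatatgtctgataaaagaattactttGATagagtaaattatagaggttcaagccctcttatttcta
mt-Te, for glutamate, chrM:14071-14139, minus strand, next to mt-Nd6:
mt-Te: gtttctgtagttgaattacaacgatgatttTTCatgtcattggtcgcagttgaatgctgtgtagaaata
mt-Ts1, for serine, chrM:6870-6938, minus strand, sharing 3 bases with mt-Co1 on the opposite strand:
mt-Ts1: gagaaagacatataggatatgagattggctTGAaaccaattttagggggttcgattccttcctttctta

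Mitochondrial protein genes were among the most abundant transcripts of the liver. By counts summed over the 12 libraries, mt-Co1 ranked 2nd and mt-Cytb ranked 6th of all genes. Per kilobase of gene, mt-Co1 had 16985 ± 1794 CPM in FBXL5ΔDC livers at 6 h and 11101 ± 1466 CPM in control livers at 0 h (SD, n = 3). At the low end, mt-Nd3 had 972 ± 69.3 and 854 ± 216 CPM per kilobase in the same groups. In control livers at 0 h, the genes in falling order per kilobase were mt-Co1, mt-Cytb, mt-Atp6, mt-Nd2, mt-Nd1, mt-Co3, mt-Nd4, mt-Co2, mt-Nd6, mt-Nd5, mt-Atp8, mt-Nd4l and mt-Nd3. The gap between neighbours in this order was larger than either SD for mt-Co1 and mt-Cytb, mt-Co2 and mt-Nd6, mt-Nd6 and mt-Nd5, and mt-Nd4l and mt-Nd3. The other neighbours differed by less than the larger SD of the pair. The rRNAs stood lower than most mRNAs, with mt-Rnr2 at 659.8 ± 225 and 719.9 ± 191 CPM per kilobase in the FBXL5ΔDC livers at 6 h and the control livers at 0 h. In cells the rRNAs are abundant mitochondrial RNAs, but the labels do not say whether the libraries came from poly(A) selection or rRNA depletion, so their levels here are those left after an unstated step.

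A stretch of mouse chromosome 1 holds near-identical nuclear copies of 7 of the protein genes, and this bears on the level of each. The copies are unprocessed pseudogenes on the minus strand between positions 24611535 and 24616197 of GRCm38, and were at least 99% identical to the originals over the aligned part. The 5 copies that span nearly the whole gene are Gm10925 (mt-Atp6), Gm28661 (mt-Co2), Gm28437 (mt-Co3), Gm28438 (mt-Nd3) and Gm10222 (mt-Nd4l). Each of these 5 held 69.6% to 107% of the count of its original in every library. Gm28439 covers 63.6% of mt-Nd4 and held 34.2% to 40.4% of its count, and Gm29216 covers 31.3% of mt-Co1 and held 11.8% to 14.3%. Together the copies took 1.38% to 2.23% of all counts of a library. How reads with several equally good places were counted was not given, so the absolute level of these 7 genes is uncertain. The copies of mt-Nd4, mt-Nd4l and mt-Co2 were called higher in FBXL5ΔDC livers at 6 h than at 0 h, at log2 0.46, 0.49 and 0.48 (adjusted p = 0.0145, 0.0171 and 0.0139, edgeR). Those of mt-Nd3, mt-Co3, mt-Atp6 and mt-Co1 were not called (adjusted p = 0.0897, 0.105, 0.0646 and 0.109, edgeR). Over all genes tested, 15% were called higher. The other 6 protein genes, mt-Nd1, mt-Nd2, mt-Nd5, mt-Nd6, mt-Cytb and mt-Atp8, had no copy that met the limits of 99% identity and 30% of the gene.

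**Figure D1:**
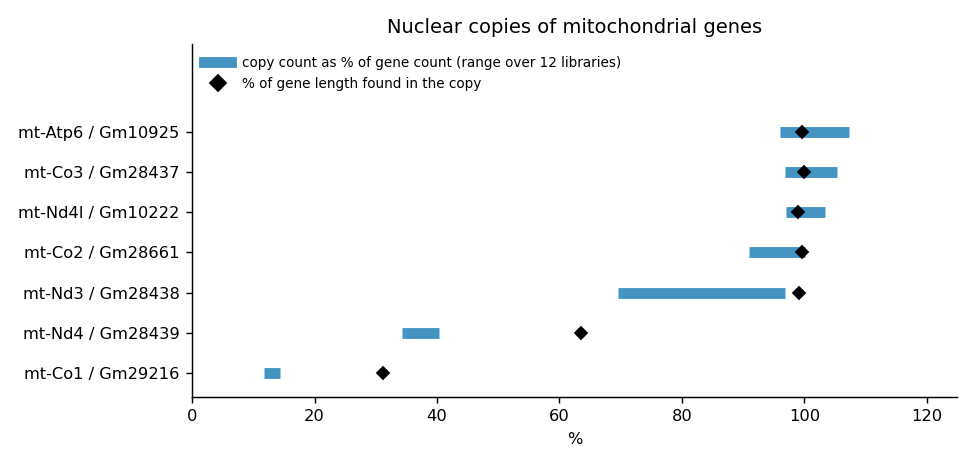
Count of each nuclear copy as a percent of the count of its mitochondrial original (bars, range over the 12 libraries) and percent of the original's length found in the copy (diamonds), 1 row per gene. Full-length copies held 69.6% to 107% of the original's count.

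Mitochondrially encoded transcripts took a larger share of the library in FBXL5ΔDC livers after acetaminophen than in the other groups. They made up 8.94%, 9.43% and 9.19% of all counts in FBXL5ΔDC livers at 6 h, against 6.38%, 6.38% and 7.05% in control livers at 6 h. At 0 h the shares were 6.44%, 6.33% and 6.84% in FBXL5ΔDC livers and 6.86%, 5.32% and 6.85% in control livers. The 3 FBXL5ΔDC livers at 6 h lay above the 9 other livers, which overlapped one another. The mean share in FBXL5ΔDC livers at 6 h was 1.41 times that of FBXL5ΔDC livers at 0 h and 1.39 times that of control livers at 6 h, or 1.44 times without replicate 3 of the control livers at 6 h. The share of control livers at 6 h was 1.04 times that of control livers at 0 h. A share is not an amount per cell: in whole liver, fewer cells of a type and less RNA per cell cannot be told apart.

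The classes differed in direction. Protein genes held 8.99 ± 0.208% of counts in FBXL5ΔDC livers at 6 h, against 6.41 ± 0.379% in control livers at 6 h, 6.28 ± 0.235% in FBXL5ΔDC livers at 0 h and 6.10 ± 0.918% in control livers at 0 h (SD, n = 3 each). The rRNA genes held 0.124 ± 0.0291%, against 0.146 ± 0.00112%, 0.206 ± 0.0431% and 0.189 ± 0.0435% in the same order, so their share was lowest in the group where the protein genes were highest. One FBXL5ΔDC liver at 6 h, with 0.157%, lay above the control livers at 6 h. The tRNA genes held 0.0772 ± 0.0142%, against 0.0440 ± 0.0109%, 0.0483 ± 0.00440% and 0.0510 ± 0.00624%. Their share was 0.0646% or more in each FBXL5ΔDC liver at 6 h and 0.0581% or less in every other liver. By summed counts mt-Te and mt-Ts1 ranked 591st and 791st of all genes, and the next tRNA gene, mt-Ty, 3634th. The tRNA share thus rests largely on mt-Te and mt-Ts1. With the nuclear copies added to the members, the share of all members was 11.1% to 11.7% in FBXL5ΔDC livers at 6 h, against 8.02% to 8.81% in control livers at 6 h, 7.96% to 8.62% in FBXL5ΔDC livers at 0 h and 6.70% to 8.66% in control livers at 0 h. Shares are described here without a test.

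**Figure D2:**
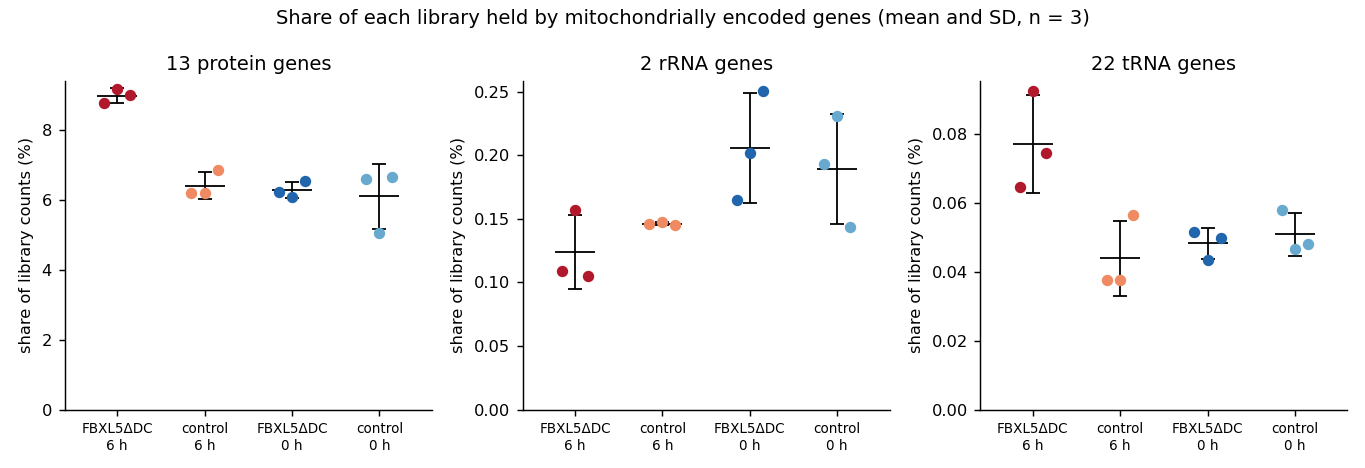
Share of all library counts (%, y axis from 0) held by the protein, rRNA and tRNA genes in each of the 12 libraries (points), with the group mean and SD (lines, n = 3), by genotype and time. In FBXL5ΔDC livers at 6 h the protein genes averaged 8.99% and the rRNA genes 0.124%, against 6.28% and 0.206% in FBXL5ΔDC livers at 0 h.

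In FBXL5ΔDC livers, acetaminophen was followed by higher levels of most mitochondrial mRNAs and a lower level of 1 rRNA. Of the 37 members, 36 passed the low-count filter, and mt-Tf, the phenylalanine tRNA, with 1 to 12 counts per library, did not. At an adjusted p under 0.05 (edgeR quasi-likelihood test, Benjamini-Hochberg over 17585 genes), 17 of the 36 were higher and 2 were lower at 6 h than at 0 h. Over all genes tested, 15% were called higher, 15.1% lower and 30.1% in either direction. Calls were made for 10 of the 13 protein genes, all higher, with a median log2 change of 0.52 against 0.02 over all genes. The groups did not overlap for any of the 13, while 24.2% of all genes tested were higher in every FBXL5ΔDC liver at 6 h than in every one at 0 h. The count of higher members was 8 without replicate 2 of the FBXL5ΔDC livers at 6 h, and 10, 6 and 10 without replicate 1, 2 or 3 of the FBXL5ΔDC livers at 0 h, and 14 to 20 without any other single library. Over all genes, 2219 were called higher in the first of these fits and 1946, 1863 and 1849 in the next 3, against 2638 with every library. The members that kept their call in all 22 alternatives tried were mt-Rnr1, mt-Tl1, mt-Nd1, mt-Tw, mt-Nd5, mt-Nd6 and mt-Cytb.

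**Figure D3:**
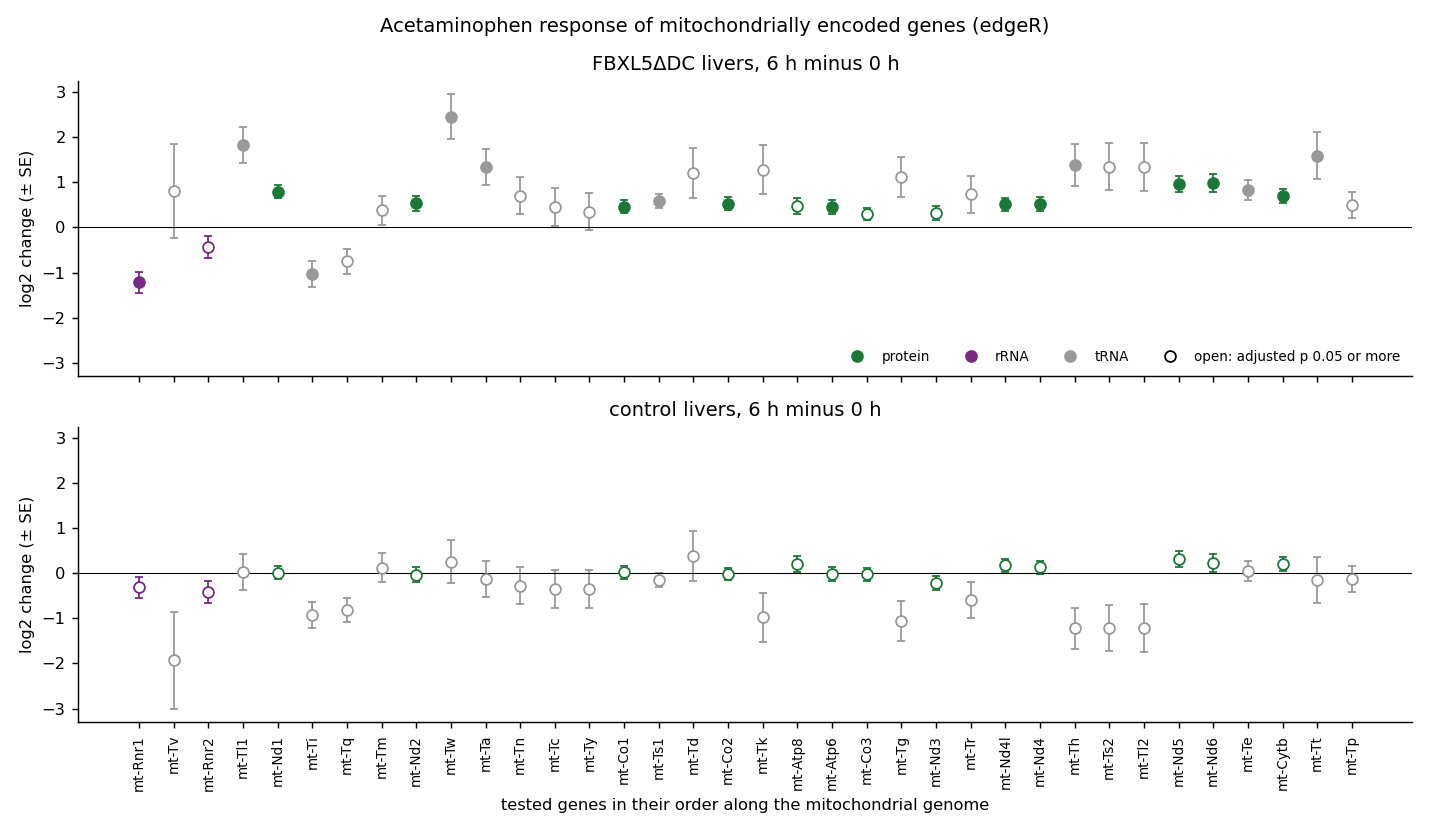
Log2 change at 6 h relative to 0 h (y axis, with SE) of the 36 tested members in their order along the mitochondrial genome (x axis), in FBXL5ΔDC livers (upper panel) and control livers (lower panel); filled points had an adjusted p under 0.05 and colours mark protein, rRNA and tRNA genes. In FBXL5ΔDC livers 17 members were called higher and 2 lower, against 0 and 0 in control livers.

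Among the rRNAs, mt-Rnr1 (chrM:70-1024), which gives the rRNA of the small ribosomal subunit, fell in FBXL5ΔDC livers. It had 368, 385 and 204 CPM in the FBXL5ΔDC livers at 6 h, against 503, 499.7 and 559 CPM in the control livers at 6 h. At 0 h it had 588, 702 and 929.7 CPM in the FBXL5ΔDC livers and 617, 787 and 541 CPM in the control livers. Every FBXL5ΔDC liver at 6 h lay below all 9 other livers, and the fall against FBXL5ΔDC livers at 0 h passed the test (log2 change -1.21, SE 0.24, adjusted p = 0.00242, edgeR). Without any single library the log2 change kept its sign and call. The rRNA of the large subunit, mt-Rnr2 (chrM:1094-2675), had 831, 1455 and 846 CPM in the FBXL5ΔDC livers at 6 h, against 819, 788 and 943 CPM in the control livers at 6 h. Its levels were 1119, 1404 and 1687 CPM in the FBXL5ΔDC livers at 0 h and 1146, 1438 and 833 CPM in the control livers at 0 h. These groups overlapped through replicate 2 of the FBXL5ΔDC livers at 6 h, and the difference from FBXL5ΔDC livers at 0 h was not called (log2 change -0.43, SE 0.24, adjusted p = 0.214, edgeR). Without that liver mt-Rnr2 was called lower (log2 -0.74, adjusted p = 0.0342, edgeR). The 2 rRNA genes lie in 1 stretch of the genome, separated by mt-Tv, the valine tRNA.

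The ratio of mt-Rnr1 to mt-Rnr2 counts moved accordingly. It was 0.316 ± 0.110 in FBXL5ΔDC livers at 6 h, against 0.614 ± 0.0206 in control livers at 6 h, 0.525 ± 0.0256 in FBXL5ΔDC livers at 0 h and 0.578 ± 0.0616 in control livers at 0 h (SD, n = 3 each). The highest value among FBXL5ΔDC livers at 6 h, 0.443, was below the lowest of the other groups, 0.500. Relative to the protein genes, the 2 rRNA genes had 1.37 ± 0.296% of their counts in FBXL5ΔDC livers at 6 h, against 2.28 ± 0.143% in control livers at 6 h. The same value was 3.26 ± 0.593% in FBXL5ΔDC livers at 0 h and 3.22 ± 1.23% in control livers at 0 h. A ratio within the mitochondrial RNAs does not depend on the scaling of the libraries.

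Of the protein genes, 7 encode core subunits of complex I, the NADH dehydrogenase that takes up electrons from NADH, and 6 of these rose in FBXL5ΔDC livers. mt-Nd1 (chrM:2751-3707) had 7979.9, 8649.7 and 7350.5 CPM in the FBXL5ΔDC livers at 6 h, against 4289.9, 4087 and 5071 CPM in the control livers at 6 h. At 0 h the values were 4413, 4479.8 and 4932 CPM in the FBXL5ΔDC livers and 4676, 3646 and 5033 CPM in the control livers. The lowest FBXL5ΔDC liver at 6 h was above the highest of all other livers, and the change against 0 h was 1.73-fold (log2 change 0.79, SE 0.15, adjusted p = 0.00169, edgeR). mt-Nd5 (chrM:11742-13565), one of the proton-pumping subunits, had 9202, 10487 and 10487 CPM in the FBXL5ΔDC livers at 6 h, against 4585, 3906 and 6835 CPM in the control livers at 6 h. Its levels were 5310.1, 4927 and 5342 CPM in the FBXL5ΔDC livers at 0 h and 4386, 3810.4 and 4227 CPM in the control livers at 0 h. It rose 1.94-fold in FBXL5ΔDC livers (log2 change 0.95, SE 0.18, adjusted p = 0.00193, edgeR), and replicate 3 was the highest of the control livers at 6 h.

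mt-Nd6 (chrM:13552-14070), also of complex I, is the sole protein gene on the minus strand. It had 2925, 3496 and 2921 CPM in the FBXL5ΔDC livers at 6 h, against 1266, 1107 and 2064 CPM in the control livers at 6 h. At 0 h it stood at 1688, 1445 and 1621 CPM in the FBXL5ΔDC livers and 1177, 1334 and 1283 CPM in the control livers. The 1.97-fold rise in FBXL5ΔDC livers was the largest of the protein genes (log2 change 0.97, SE 0.20, adjusted p = 0.003, edgeR). mt-Nd6 lies opposite the transcript that carries mt-Nd5 and mt-Cytb and shares 14 bases with mt-Nd5. Its count was 31.0 ± 2.82% of that of mt-Nd5 in FBXL5ΔDC livers at 6 h, against 28.7 ± 1.33% in control livers at 6 h, 30.5 ± 1.24% in FBXL5ΔDC livers at 0 h and 30.7 ± 4.10% in control livers at 0 h. Whether the counting used the strand was not given, so reads of mt-Nd6 and of RNA from the opposite strand cannot be told apart.

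mt-Nd2, mt-Nd4 and mt-Nd4l, membrane subunits of complex I, rose less. mt-Nd2 (chrM:3914-4951) averaged 9392 ± 1069.7 CPM in FBXL5ΔDC livers at 6 h and 6489 ± 374 CPM at 0 h (log2 0.53, adjusted p = 0.0258, edgeR). mt-Nd4 (chrM:10167-11544) averaged 9885 ± 616 and 6884 ± 605 CPM in these groups (log2 0.52, adjusted p = 0.0184, edgeR). mt-Nd4l (chrM:9877-10173), which overlaps mt-Nd4 by 7 bases, averaged 917 ± 32.2 and 643 ± 39.7 CPM (log2 0.51, adjusted p = 0.0153, edgeR). mt-Nd3 (chrM:9459-9806), the lowest of the mRNAs, averaged 338 ± 24.1 and 271 ± 15.2 CPM and was not called (log2 0.32, adjusted p = 0.155, edgeR). In each of the 4, all FBXL5ΔDC livers at 6 h lay above all those at 0 h.

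mt-Cytb (chrM:14145-15288) encodes cytochrome b, the mitochondrial subunit of complex III, which passes electrons from ubiquinol to cytochrome c. Its levels were 14019, 14935 and 12499 CPM in the FBXL5ΔDC livers at 6 h, against 7521, 7733 and 10196 CPM in the control livers at 6 h. At 0 h they were 8471, 8348 and 8889 CPM in the FBXL5ΔDC livers and 7401, 6285 and 8363 CPM in the control livers. All 3 FBXL5ΔDC livers at 6 h exceeded the 9 others, of which replicate 3 of the control livers at 6 h was the highest, and the rise against 0 h was 1.61-fold (log2 change 0.69, SE 0.15, adjusted p = 0.0047, edgeR).

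Of the 3 mitochondrial subunits of complex IV, the cytochrome c oxidase, mt-Co1 and mt-Co2 rose and mt-Co3 was not called. mt-Co1 (chrM:5328-6872), the catalytic subunit, had 25751, 29226 and 23748 CPM in the FBXL5ΔDC livers at 6 h, against 16645, 15536 and 19860.0 CPM in the control livers at 6 h. It had 19371, 18569 and 19399 CPM in the FBXL5ΔDC livers at 0 h and 18067, 14572 and 18814 CPM in the control livers at 0 h. The groups of FBXL5ΔDC livers did not overlap (log2 change 0.46, SE 0.14, adjusted p = 0.0285, edgeR). mt-Co2 (chrM:7013-7696), which receives electrons from cytochrome c, averaged 4281 ± 524 CPM at 6 h and 2973 ± 217 CPM at 0 h in FBXL5ΔDC livers (log2 change 0.53, SE 0.14, adjusted p = 0.0117, edgeR). mt-Co3 (chrM:8607-9390) averaged 4503 ± 677 and 3664 ± 99.6 CPM (log2 change 0.30, SE 0.14, adjusted p = 0.129, edgeR).

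The 2 mitochondrial subunits of ATP synthase, mt-Atp6 and mt-Atp8, share 43 bases of the genome, so reads in that stretch could be counted for either. mt-Atp6 (chrM:7927-8607), part of the proton channel, averaged 6649 ± 827 CPM in FBXL5ΔDC livers at 6 h and 4876 ± 234 CPM at 0 h (log2 change 0.45, SE 0.16, adjusted p = 0.0449, edgeR). This call was lost in 12 of 22 alternatives, with adjusted p up to 0.154. mt-Atp8 (chrM:7766-7969) averaged 819 ± 52.1 and 588 ± 18.7 CPM and was not called (log2 change 0.48, SE 0.18, adjusted p = 0.0689, edgeR). The calls of mt-Nd2 and mt-Co1 were each lost in 5 of the 22 alternatives, with adjusted p up to 0.103 and 0.113.

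**Figure D4:**
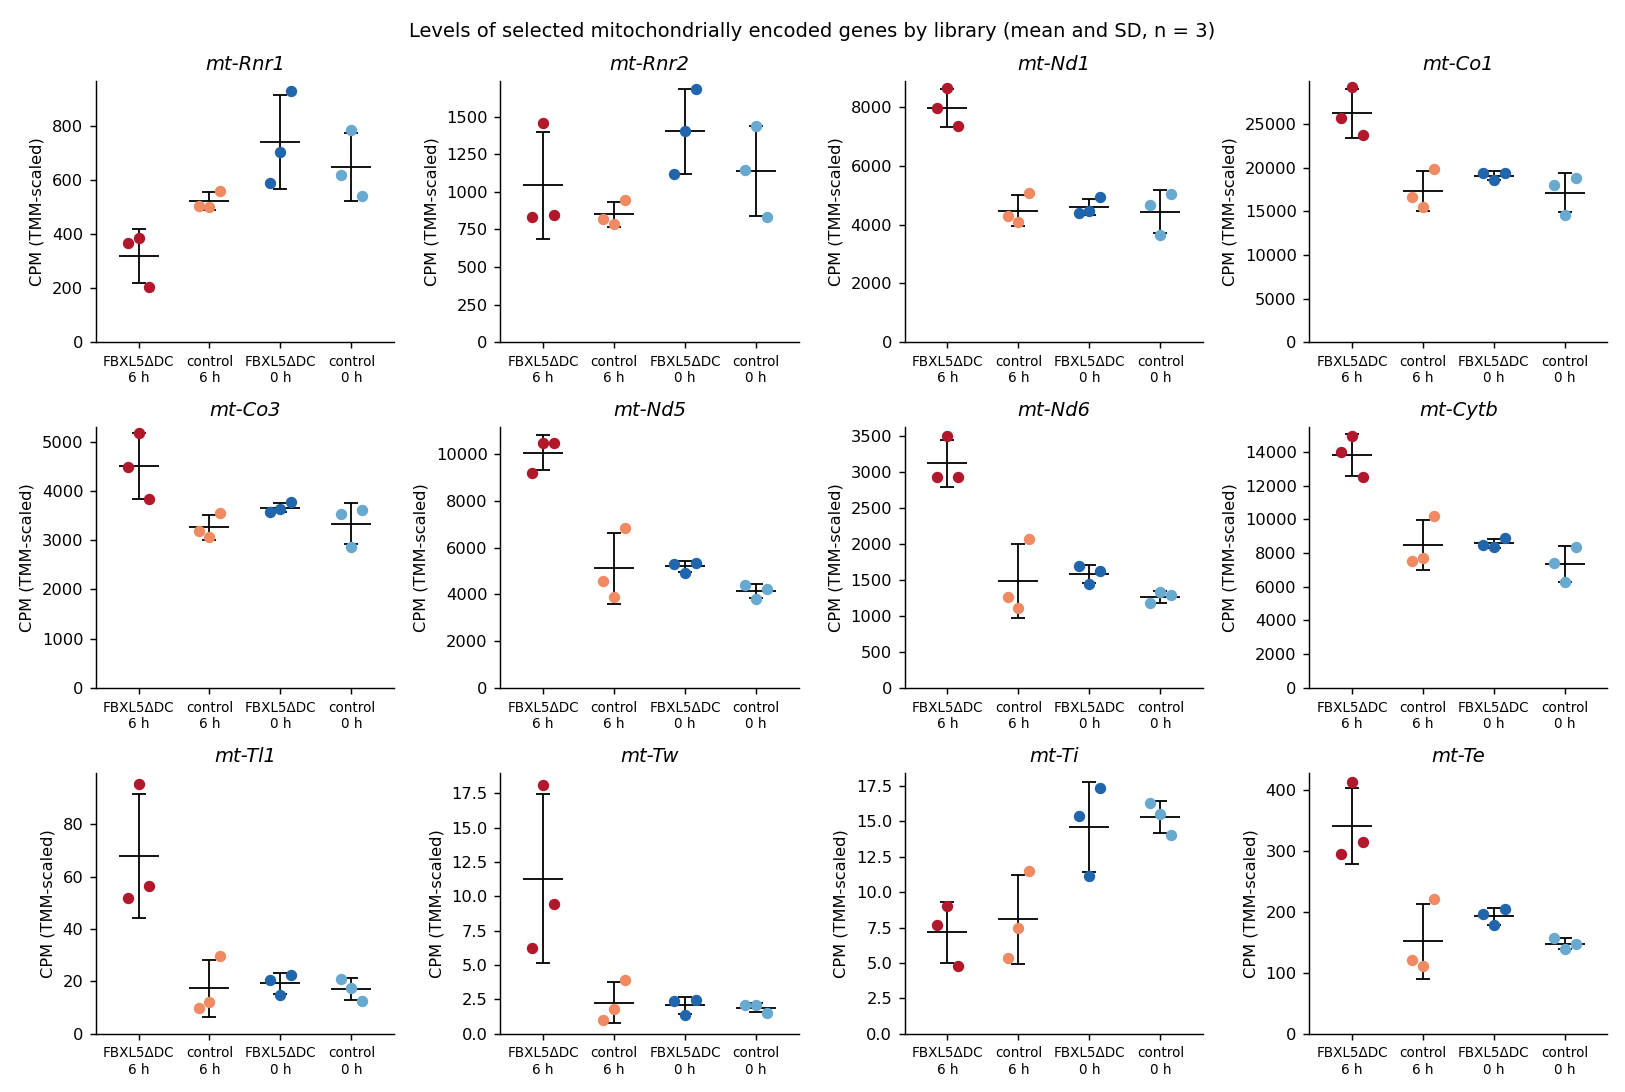
Level in CPM (TMM-scaled, y axes from 0) of 12 selected members in each library (points), with group mean and SD (lines, n = 3), by genotype and time. mt-Rnr1 was lowest in FBXL5ΔDC livers at 6 h, at 319 CPM against 740 CPM at 0 h, and mt-Nd1 was highest there, at 7993 CPM against 4608 CPM.

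The tRNA genes were low and uneven. Their counts summed to at most 0.0925% of a library. A read in so short a gene can also reach its neighbours, so mature tRNA and longer uncut RNA cannot be told apart in these counts. Of the 21 tRNA genes tested in FBXL5ΔDC livers at 6 h against 0 h, 7 were called higher and 1 lower. Over all genes tested, 15% were called higher and 15.1% lower. Their median log2 change was 0.82 against 0.02 over all genes. On the plus strand 4 of 13 were higher and 1 lower, and on the minus strand 3 of 8 were higher.

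mt-Tw, the tryptophan tRNA, had the largest called change. It had 6.23, 18.1 and 9.43 CPM in the FBXL5ΔDC livers at 6 h, against 1.02, 1.80 and 3.90 CPM in the control livers at 6 h. Its levels at 0 h were 2.40, 1.35 and 2.43 CPM in the FBXL5ΔDC livers and 2.07, 2.07 and 1.5 CPM in the control livers. All FBXL5ΔDC livers at 6 h were higher than any other liver, with replicate 2 the highest (log2 change 2.45, SE 0.50, adjusted p = 0.003, edgeR). mt-Tl1, the leucine tRNA whose sequence is given above, had 51.9, 95.2 and 56.5 CPM in the FBXL5ΔDC livers at 6 h, against 9.95, 12 and 29.8 CPM in the control livers at 6 h. At 0 h its values were 20.4, 14.8 and 22.5 CPM in the FBXL5ΔDC livers and 20.9, 17.3 and 12.7 CPM in the control livers. Groups did not overlap, and the rise was 3.53-fold (log2 change 1.82, SE 0.40, adjusted p = 0.00612, edgeR).

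mt-Tl1 begins at the base after mt-Rnr2 ends and ends at the base before mt-Nd1 starts. Its count was 6.49 ± 0.223% of that of mt-Rnr2 in FBXL5ΔDC livers at 6 h, against 1.97 ± 1.05% in control livers at 6 h, 1.40 ± 0.390% in FBXL5ΔDC livers at 0 h and 1.52 ± 0.314% in control livers at 0 h. No liver outside the first group exceeded 3.17%. The gene on its other side also rose relative to mt-Rnr2: mt-Nd1 had 8.08 ± 1.90 times the count of mt-Rnr2 in FBXL5ΔDC livers at 6 h, against 5.27 ± 0.100 times in control livers at 6 h. At 0 h the ratio was 3.35 ± 0.530 in FBXL5ΔDC livers and 4.22 ± 1.76 in control livers, where 1 liver, at 6.04, overlapped the first group. This was not particular to mt-Nd1. Counts of mt-Rnr2 were 1.05 ± 0.265% of all protein-gene counts in FBXL5ΔDC livers at 6 h and 2.14 ± 0.372% at 0 h.

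mt-Te, the glutamate tRNA beside mt-Nd6 on the minus strand, was the most abundant tRNA gene. Its levels were 294, 412 and 315 CPM in the FBXL5ΔDC livers at 6 h, against 120.2, 112 and 222 CPM in the control livers at 6 h. At 0 h they were 196, 178 and 204 CPM in the FBXL5ΔDC livers and 156, 138 and 148 CPM in the control livers. Replicate 3 of the control livers at 6 h stood above the 0 h livers, and the lowest FBXL5ΔDC liver at 6 h stood above it (log2 change 0.82, SE 0.22, adjusted p = 0.0147, edgeR). mt-Ts1, the serine tRNA at the end of mt-Co1, averaged 201 ± 17.6 CPM in FBXL5ΔDC livers at 6 h and 133 ± 14.2 CPM at 0 h (log2 change 0.59, SE 0.16, adjusted p = 0.0125, edgeR). mt-Th, for histidine, averaged 9.93 ± 4.76 and 3.81 ± 0.488 CPM (log2 1.38, adjusted p = 0.0397, edgeR). mt-Tt, for threonine, averaged 1.79 ± 0.696 and 0.596 ± 0.159 CPM (log2 1.59, adjusted p = 0.0348, edgeR). Of the 22 alternatives, the call of mt-Th was lost in 8 (adjusted p up to 0.18), that of mt-Tt in 6 (up to 0.139), and those of mt-Te and mt-Ts1 in 2 each.

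The alanine, asparagine, cysteine and tyrosine tRNAs lie side by side on the minus strand after mt-Tw, and replicate 2 of the FBXL5ΔDC livers at 6 h was high in each. mt-Ta had 10.7, 31.2 and 11.9 CPM in FBXL5ΔDC livers at 6 h and 8.16, 5.41 and 7.54 CPM at 0 h, a called rise (log2 1.35, adjusted p = 0.0226, edgeR). Without replicate 2 of the FBXL5ΔDC livers at 6 h its change was log2 0.68 and not called (adjusted p = 0.14, edgeR), and the call was lost in 4 of the 22 alternatives in all. mt-Ty had 28, 79.4 and 24.1 CPM at 6 h and 36.5, 28.8 and 37.7 CPM at 0 h, and was not called (adjusted p = 0.576, edgeR). Outside replicate 2, the FBXL5ΔDC livers at 6 h lay below all 3 at 0 h for mt-Ty.

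mt-Ti, for isoleucine, went the other way. It had 7.65, 9.04 and 4.80 CPM in the FBXL5ΔDC livers at 6 h, against 5.32, 7.44 and 11.5 CPM in the control livers at 6 h. Its levels at 0 h were 15.4, 11.2 and 17.4 CPM in the FBXL5ΔDC livers and 16.3, 15.5 and 14.1 CPM in the control livers. In FBXL5ΔDC livers it was lower at 6 h in every liver (log2 change -1.03, SE 0.29, adjusted p = 0.0174, edgeR), and the call was lost in 3 of 22 alternatives. Its neighbour mt-Tq, for glutamine, averaged 5.64 ± 1.24 and 9.50 ± 1.84 CPM at 6 h and 0 h and was not called (log2 -0.75, adjusted p = 0.0524, edgeR). mt-Ti, mt-Tq and mt-Tt were picked for description after their values were seen. The other 12 tRNA genes that were tested and not called had log2 changes between 0.35 (mt-Ty) and 1.35 (mt-Ts2).

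The make-up of the mitochondrial mRNAs differed as well. mt-Nd6 made up 3.18 ± 0.121% of the protein-gene counts in FBXL5ΔDC livers at 6 h, against 2.40 ± 0.452% in control livers at 6 h, 2.42 ± 0.178% in FBXL5ΔDC livers at 0 h and 2.24 ± 0.436% in control livers at 0 h. mt-Nd1 made up 8.16 ± 0.117%, against 7.45 ± 0.256%, 7.04 ± 0.186% and 7.73 ± 0.217% in the same order. For both, every FBXL5ΔDC liver at 6 h was above every other liver. mt-Nd5 made up 10.3 ± 1.14%, against 8.34 ± 1.22%, 7.93 ± 0.264% and 7.26 ± 0.590%, and replicate 3 of the control livers at 6 h, at 9.64%, overlapped the FBXL5ΔDC livers.

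mt-Co1 and mt-Co3 of complex IV and mt-Nd3 of complex I took a smaller part. mt-Co1 made up 26.7 ± 0.442% of protein-gene counts in FBXL5ΔDC livers at 6 h, against 28.8 ± 0.807% in control livers at 6 h, 29.2 ± 0.832% in FBXL5ΔDC livers at 0 h and 29.9 ± 0.221% in control livers at 0 h. mt-Co3 made up 4.58 ± 0.298%, against 5.45 ± 0.384%, 5.60 ± 0.116% and 5.81 ± 0.0980%. mt-Nd3 made up 0.346 ± 0.0184%, against 0.428 ± 0.0535%, 0.414 ± 0.0254% and 0.511 ± 0.0648%. In each of these 3, all FBXL5ΔDC livers at 6 h lay below all other livers. The third complex IV mRNA, mt-Co2, made up 4.36 ± 0.142%, against 4.58 ± 0.153%, 4.54 ± 0.153% and 4.89 ± 0.316%, and the groups overlapped. The shares of a whole are tied to one another, and mt-Co1, mt-Co2, mt-Co3 and mt-Nd3 all have nuclear copies.

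**Figure D5:**
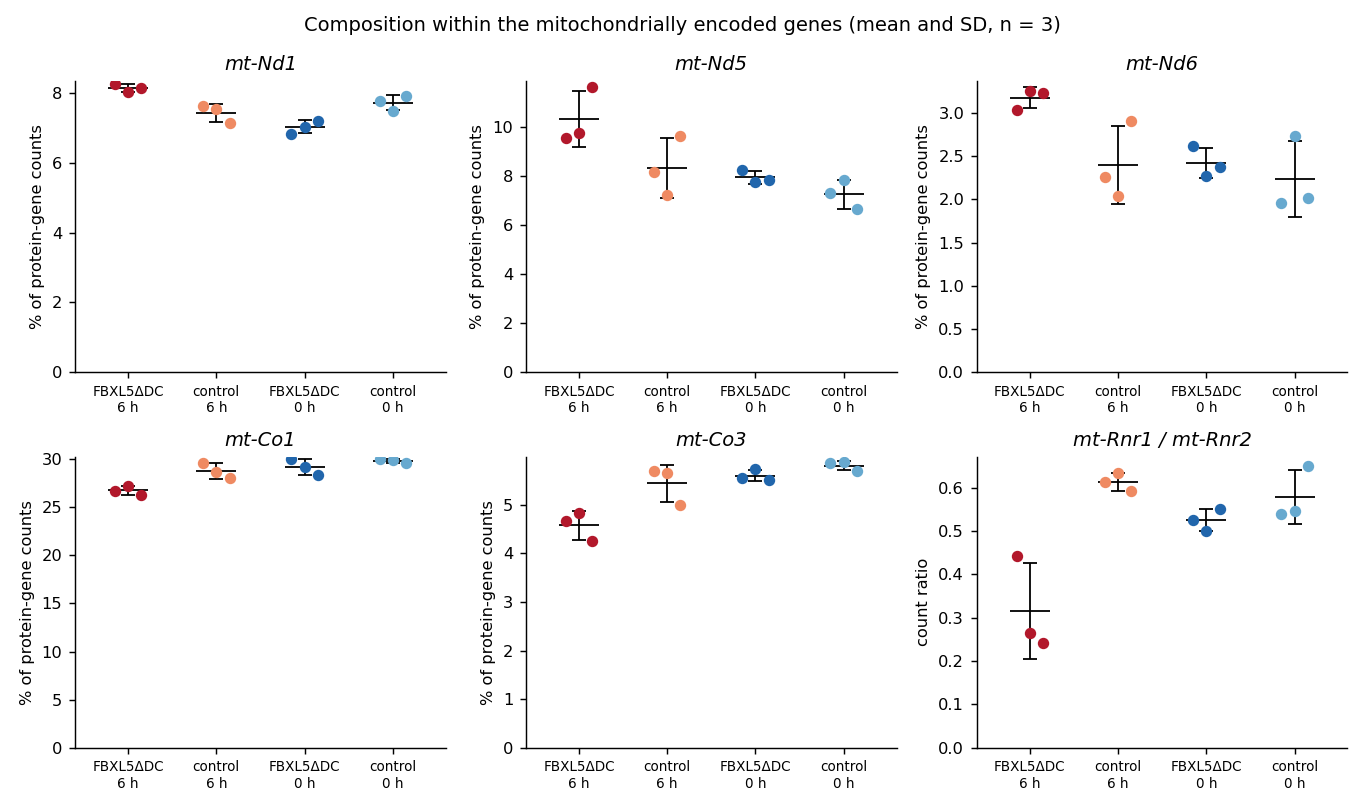
Percent of the protein-gene counts taken by mt-Nd1, mt-Nd5, mt-Nd6, mt-Co1 and mt-Co3, and the count ratio of mt-Rnr1 to mt-Rnr2 (y axes from 0), in each library (points) with group mean and SD (lines, n = 3). In FBXL5ΔDC livers at 6 h mt-Nd6 took 3.18% and mt-Co1 26.7%, and the rRNA ratio was 0.316.

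In control livers no member passed the test after acetaminophen (edgeR). The count was 0 of 36, while 6.36% of all genes tested were called higher, 4.2% lower and 10.6% in either direction. There were 6 of the 36 members with an unadjusted p under 0.05 in edgeR, beside 4346 of all 17585 genes. DESeq2 called 0 members higher and 3 lower, beside 1687 and 1196 of all genes. The protein genes had a median log2 change of 0.02, ranging from -0.22 (mt-Nd3) to 0.30 (mt-Nd5), and the groups overlapped for all 13. mt-Rnr1 averaged 520.5 ± 33.3 CPM in control livers at 6 h and 648 ± 126 CPM at 0 h (log2 change -0.32, SE 0.23, adjusted p = 0.459, edgeR). mt-Rnr2 averaged 849.8 ± 81.8 and 1139 ± 303 CPM (log2 change -0.42, SE 0.24, adjusted p = 0.32, edgeR). mt-Ti and mt-Tq were lower in every control liver at 6 h than in every one at 0 h, at log2 -0.92 (adjusted p = 0.0597) and -0.82 (adjusted p = 0.0726, edgeR). Over all genes, 13.4% were lower in this sense.

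Single control livers stood out at both times. Replicate 1 of the control livers at 0 h had 13.9 CPM of mt-Th, 16.5 CPM of mt-Ts2, 20.8 CPM of mt-Tl2 and 11.8 CPM of mt-Tg, all 4 picked after their values were seen. The other control livers at 0 h had 4.0 to 6.48 CPM of mt-Th, and control livers at 6 h had 2.41, 2.73 and 5.28 CPM. In all, 19 of the 22 tRNA genes were highest in that replicate among the control livers at 0 h. Replicate 3 was the highest of the control livers at 6 h for 13 of 13 protein genes, 2 of 2 rRNA genes and 21 of 22 tRNA genes. Without it, 2 of the members were called lower and 0 higher in control livers, beside 3.86% and 5.23% of all genes tested.

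At 6 h, mitochondrial mRNAs were higher in FBXL5ΔDC than in control livers. Of 36 members tested, 15 were called higher and 0 lower, while 1.35% of all genes tested were higher, 4.51% lower and 5.86% called in either direction. The 15 were 10 protein genes and 5 tRNA genes. The protein genes not called were again mt-Atp8, mt-Co3 and mt-Nd3, with adjusted p = 0.0624, 0.0709 and 0.151 (edgeR). Every FBXL5ΔDC liver was above every control liver for all 13, and 9.74% of all genes tested were higher in this sense. The median log2 difference of the protein genes was 0.63, against -0.01 over all genes. This comparison and the acetaminophen response of FBXL5ΔDC livers share the 3 FBXL5ΔDC livers at 6 h.

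By complex, 6 of 7 complex I genes, the complex III gene, 2 of 3 complex IV genes and 1 of 2 ATP synthase genes were called higher in FBXL5ΔDC livers. mt-Nd6 differed most, 2.11-fold (log2 difference 1.07, SE 0.20, adjusted p = 0.0117, edgeR). mt-Nd5 followed at 1.97-fold (log2 difference 0.98, SE 0.18, adjusted p = 0.0113, edgeR) and mt-Nd1 at 1.78-fold (log2 difference 0.83, SE 0.15, adjusted p = 0.0096, edgeR). mt-Nd2 differed by log2 0.81, mt-Cytb by 0.70, and the 5 others called by 0.60 (mt-Co1) to 0.63 (mt-Co2). Of the tRNAs, mt-Tw (log2 2.33), mt-Tl1 (1.98), mt-Ta (1.56), mt-Te (1.17) and mt-Ts1 (0.62) were called. mt-Rnr1 was below the control values in every FBXL5ΔDC liver, at -0.71, and did not pass (adjusted p = 0.0959, edgeR), and mt-Rnr2 stood at 0.30 (adjusted p = 0.52).

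The size of this difference was steadier than its calls. Leaving out any single library, the median log2 difference of the protein genes ranged from 0.58 to 0.74. The count of members called higher was 1 without replicate 1 and 3 without replicate 2 of the control livers at 6 h, and 23 without replicate 3, the library that stood apart. Over all genes, 35, 49 and 1873 were then called higher, against 238 with every library. Without replicate 1 or 2 of the FBXL5ΔDC livers at 6 h, 8 or 2 members and 83 or 54 of all genes were called higher. Fitted to the 2 groups alone, 0 members were called, as were 6 of 16188 genes. Each of the 15 calls was lost in at least 1 of 22 alternatives. Scaled by library totals alone, the median difference of the protein genes was 0.42, with 11 members higher and mt-Rnr1 lower, and the median of all genes then stood at -0.23. In that scaling 157 genes were called higher and 1774 lower, against 238 and 793 with TMM.

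Without acetaminophen no member was called between genotypes. In FBXL5ΔDC livers at 0 h, 0 of 36 members differed from control livers at 0 h by edgeR, as did 0% of all genes tested. At an unadjusted p under 0.05 there were 2 members, mt-Th and mt-Ts2, both lower, beside 465 of all 17585 genes. DESeq2 called 0 members, and 8 of all genes higher and 6 lower. The protein genes had a median log2 difference of 0.22, from -0.13 (mt-Nd3) to 0.36 (mt-Atp8), with 12 of 13 positive. The median moved between 0.11 and 0.32 when single libraries were left out, and to 0.08 when libraries were scaled by their totals alone. Of the 13, 3 were higher in every FBXL5ΔDC liver than in every control liver at 0 h: mt-Nd4l, mt-Nd5 and mt-Nd6. So was 1 tRNA gene, mt-Te. Over all genes tested, 5.94% were higher in this sense.

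The difference between the 2 acetaminophen responses, tested as an interaction, was not called for any member. The count was 0 of 36, while 0.0341% of all genes were called higher, 0.256% lower and 0.29% in either direction. All 13 protein genes had positive values, that is, a larger response in FBXL5ΔDC livers, with a median of 0.48. At an unadjusted p under 0.05 there were 21 of the 36 members in edgeR, beside 2543 of all 17585 genes. DESeq2 called 7 members higher and 0 lower, beside 213 and 476 of all genes. Without replicate 3 of the control livers at 6 h, 16 members were called higher by edgeR, while 2533 of 18464 genes were then called, against 51 of 17585 with it. mt-Nd1 had the largest value among protein genes (log2 0.78, adjusted p = 0.113, edgeR), and mt-Rnr1 had -0.90 (adjusted p = 0.242, edgeR). A response called in one genotype and not in the other is therefore not shown to differ by this test.

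Some nuclear genes that transcribe and copy the mitochondrial genome fell in FBXL5ΔDC livers. Of 17 tested at 6 h against 0 h, 0 were higher and 6 lower, beside 15% and 15.1% of all genes, with a median log2 change of -0.57 against 0.02 over all genes. Twnk, the replicative helicase, averaged 9.58 ± 1.02 CPM in FBXL5ΔDC livers at 6 h and 26.1 ± 0.789 CPM at 0 h (log2 -1.44, adjusted p = 0.000479, edgeR). Polg2, the accessory subunit of the mitochondrial DNA polymerase, averaged 2.84 ± 0.378 and 7.53 ± 0.726 CPM (log2 -1.41, adjusted p = 0.00122, edgeR). Polrmt, the RNA polymerase, averaged 16.2 ± 1.72 and 25.7 ± 1.77 CPM (log2 -0.67, adjusted p = 0.00309, edgeR), and Tfam 28.4 ± 1.97 and 36.2 ± 1.30 CPM (log2 -0.35, adjusted p = 0.0277, edgeR). In control livers 0 were higher and 1 lower of the same 17, with a median of -0.05, beside 6.36% and 4.2% of all genes. Between genotypes at 6 h, 0 were higher and 2 lower, beside 1.35% and 4.51% of all genes. These were Twnk (log2 -1.21, adjusted p = 0.00915) and Polg2 (log2 -0.91, adjusted p = 0.0436, edgeR). Without replicate 3 of the control livers at 6 h, 7 were lower between genotypes, where 10.1% of all genes were then called higher and 12.9% lower. Twnk then had log2 -1.42 (adjusted p = 3.77e-05) and Polg2 -1.06 (adjusted p = 0.00566, edgeR). In control livers 0 of the 17 were then called, beside 5.23% of all genes higher and 3.86% lower. Summed over the 17, the level was 174 ± 5.17 CPM in FBXL5ΔDC livers at 6 h, against 194 CPM in replicate 3 of the control livers at 6 h and 236 and 243 CPM in the other 2.

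Genes that cut, modify and stabilise mitochondrial RNA moved both ways. Of 21 tested, 6 rose and 1 fell in FBXL5ΔDC livers at 6 h against 0 h, and the counts were the same in control livers, while 30.1% of all genes were called in FBXL5ΔDC livers and 10.6% in control livers. Pde12, which removes poly(A) from mitochondrial RNA, averaged 40.2 ± 3.14 CPM in FBXL5ΔDC livers at 6 h and 12.9 ± 2.46 CPM at 0 h (log2 1.64, adjusted p = 9.38e-05, edgeR). Tbrg4, an RNA-binding protein of the FASTK family, averaged 60.6 ± 3.30 and 34.2 ± 2.48 CPM (log2 0.82, adjusted p = 0.000683, edgeR). Fastkd5, of the same family, was the one that fell (log2 -0.72, adjusted p = 0.0342), and it was lower in FBXL5ΔDC than in control livers at 6 h (log2 -1.17, adjusted p = 0.0164, edgeR). Without replicate 3 of the control livers at 6 h, Fastkd5 stood at -1.08 (adjusted p = 0.00594, edgeR). Between genotypes 4 of the 21 were then lower, beside 12.9% of all genes, against 1 with that library, beside 4.51%. In control livers 5 then rose and 1 fell, beside 5.23% and 3.86% of all genes. Lrpprc, which stabilises mitochondrial mRNAs, had log2 -0.28 in FBXL5ΔDC livers and was not called (adjusted p = 0.0866, edgeR), while in control livers it was called lower at 6 h than at 0 h (log2 -0.46, adjusted p = 0.0242, edgeR). Gtpbp3, which modifies mitochondrial tRNAs, and Prorp, the RNase P subunit that cuts their 5′ ends, had log2 -0.54 and -0.33 (adjusted p = 0.174 and 0.27, edgeR), and Prorp was added after its values were seen.

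Of 8 regulators of mitochondrial biogenesis, 3 rose and 2 fell in FBXL5ΔDC livers, beside 15% and 15.1% of all genes, and 1 rose in control livers, beside 6.36%. At 6 h 0 were called between genotypes, beside 1.35% of all genes higher and 4.51% lower. Without replicate 3 of the control livers at 6 h, 3 were higher and 1 lower, beside 10.1% and 12.9% (edgeR). The coactivators Pprc1 and Ppargc1b rose in FBXL5ΔDC livers, at log2 1.94 (adjusted p = 0.000747) and 1.52 (adjusted p = 0.00274, edgeR), and the transcription factor Yy1 fell, at -0.71 (adjusted p = 0.00142, edgeR). Ppargc1a, the coactivator of the fasting response, averaged 21.2 ± 3.77 CPM in FBXL5ΔDC livers at 6 h and 13 ± 2.08 CPM at 0 h and was not called (adjusted p = 0.184, edgeR).

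The nuclear partners of the mitochondrial respiratory subunits showed few calls. In FBXL5ΔDC livers at 6 h against 0 h, 0 of 36 complex I genes rose and 1 fell, 0 of 9 in complex III and 0 of 11 in complex IV were called, and 1 of 14 ATP synthase genes rose. That gene was Atp5g1, of the membrane ring (log2 0.37, adjusted p = 0.0241), and the complex I gene was Ndufa6 (log2 -0.39, adjusted p = 0.0228, edgeR). These counts stand beside 15% of all genes called higher and 15.1% lower. Ndufa6 was also called lower in control livers (log2 -0.44, adjusted p = 0.0299, edgeR), the sole call of these 4 lists there. Their median log2 changes were 0.03, 0.17, 0.13 and 0.20 for complexes I, III, IV and V, beside 0.53, 0.69, 0.46 and 0.46 for the mitochondrially encoded members of the same complexes. In control livers the nuclear medians were -0.24, -0.21, -0.23 and -0.13. Other genes picked for the smallest p in these lists were Ndufs7 and Ndufa1 (complex I), Uqcrfs1, Uqcrh and Uqcrc2 (III), Cox5b, Cox6c, Cox4i1 and Cox7b (IV), and Atp5b and Atp5o (V). Their log2 changes lay between -0.45 (Ndufs7) and 0.28 (Atp5o), with none called. Between genotypes at 6 h none of these 4 lists had a call (edgeR), beside 1.35% of all genes higher and 4.51% lower. The medians of the lists were 0.14, 0.20, 0.26 and 0.22. Leaving out replicate 3 of the control livers at 6 h, 2, 1, 3 and 0 genes of these complexes were higher in FBXL5ΔDC livers and 0 lower. Over all genes, 10.1% were then higher and 12.9% lower. Of 78 mitochondrial ribosomal protein genes, 3 rose and 5 fell in FBXL5ΔDC livers, beside 15% and 15.1% of all genes. In control livers 2 rose and 1 fell, beside 6.36% and 4.2%. Without replicate 3 at 6 h these were 3 and 0, beside 5.23% and 3.86%. At 6 h no call was made between genotypes, beside 1.35% of all genes higher and 4.51% lower. Without replicate 3 of the control livers at 6 h, 0 were higher and 17 lower between genotypes, beside 10.1% and 12.9% (edgeR). Mrpl19 rose (log2 0.90, adjusted p = 0.00125) and Mrpl14 fell (log2 -0.65, adjusted p = 0.00139, edgeR), while Mrpl50 had log2 -0.51 between genotypes at 6 h and was not called (adjusted p = 0.0685), and without that library it was called, at -0.68 (adjusted p = 0.000601, edgeR).

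Among 13 genes of the mitochondrial stress response, 2 rose and 2 fell in FBXL5ΔDC livers, and 5 rose and 1 fell in control livers. In all, 4 of 13 were called in FBXL5ΔDC livers, beside 30.1% of all genes, and 6 of 13 in control livers, beside 10.6%. Without replicate 3 at 6 h, 4 rose and 1 fell in control livers, beside 5.23% and 3.86% of all genes. Gdf15, a secreted stress hormone, averaged 104 ± 53.6 CPM in FBXL5ΔDC livers at 6 h and 5.90 ± 2.44 CPM at 0 h (log2 4.13, adjusted p = 0.00296, edgeR). Dnaja3, a mitochondrial co-chaperone, fell (log2 -0.84, adjusted p = 0.00309, edgeR). At 6 h, 3 of the 13 were lower in FBXL5ΔDC than in control livers, beside 4.51% of all genes. Among them were Hspe1, a mitochondrial chaperonin, at 68.9 ± 6.43 CPM against 281 ± 162 CPM (log2 -2.03, adjusted p = 0.0149, edgeR), and Trib3, a stress-induced pseudokinase, at log2 -1.50 (adjusted p = 0.00573, edgeR). Without replicate 3 of the control livers at 6 h, 1 was higher and 5 were lower in FBXL5ΔDC livers, beside 10.1% and 12.9% of all genes. Hspe1 then stood at -2.41 (adjusted p = 4.18e-06) and Trib3 at -1.58 (adjusted p = 0.000317, edgeR). Of 11 mitophagy and dynamics genes, 1 rose and 3 fell in FBXL5ΔDC livers, among them Mfn2, a fusion factor (log2 -1.11, adjusted p = 0.00186), and Bnip3l, a mitophagy receptor (log2 -0.45, adjusted p = 0.0151, edgeR). Pink1, the kinase that starts mitophagy, had log2 -0.02 (adjusted p = 0.927, edgeR). The 4 of 11 called stand beside 30.1% of all genes. In control livers 1 of the 11 rose and 1 fell, beside 6.36% and 4.2% of all genes. Without replicate 3 at 6 h these were 1 and 3, beside 5.23% and 3.86%. The comparison of genotypes at 6 h gave 0 calls, beside 1.35% of all genes higher and 4.51% lower. Without that library 1 was higher and 1 lower between genotypes, beside 10.1% and 12.9% (edgeR).

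Markers of liver cell types moved beside these results. Over all genes tested, 15% were called higher and 15.1% lower in FBXL5ΔDC livers at 6 h against 0 h. In that comparison, of 12 pericentral hepatocyte genes, 0 were higher and 11 lower. Their summed level was 957 to 1530 CPM in FBXL5ΔDC livers at 6 h, against 3382 to 5683 CPM in control livers at 6 h, 11666 to 12429 CPM in FBXL5ΔDC livers at 0 h and 9304 to 12409 CPM in control livers at 0 h. Of the 12, 1 or 2 were at 0 counts in each FBXL5ΔDC liver at 6 h and 0 elsewhere. Of 11 general hepatocyte genes, 2 were higher and 0 lower, with sums of 141275 to 182976 CPM in FBXL5ΔDC livers at 6 h, against 113594 to 124075 CPM at 0 h. Replicate 3 of the control livers at 6 h had 150549 CPM, against 92423 and 106508 CPM in the other 2. Endothelial genes summed to 211 to 259 CPM in FBXL5ΔDC livers at 6 h and 107 to 137 CPM at 0 h (5 of 6 higher), stellate cell genes to 332 to 383 and 88.5 to 163 CPM (4 of 6 higher), and neutrophil genes to 3.40 to 10.2 and 0.730 to 1.87 CPM (4 of 6 higher). Dendritic cell genes summed to 5.10 to 6.56 and 4.84 to 5.74 CPM, with 0 of 7 called. At least 1 of those 7 was at 0 counts in each FBXL5ΔDC liver. Of 7 Kupffer cell genes 1 was higher, of 5 erythroid genes 0 were called, and of 12 periportal genes 2 were higher and 1 lower. These also stand beside 15% of all genes higher and 15.1% lower. Between genotypes at 6 h, 9 of 12 pericentral genes were lower in FBXL5ΔDC livers, and 1 of 6 endothelial and 2 of 12 periportal genes were higher. In the same comparison 0 of 6 stellate, 0 of 6 neutrophil and 0 of 11 general hepatocyte genes were called (edgeR). Nor was a call made among 7 Kupffer cell, 7 dendritic cell and 5 erythroid genes. Over all genes, 1.35% were higher and 4.51% lower there. Without replicate 3 of the control livers at 6 h, 9 of 12 pericentral genes were lower, 5 of 6 endothelial, 3 of 6 stellate and 6 of 11 general hepatocyte genes were higher, 1 stellate gene was lower and 0 neutrophil genes were called. Of 12 periportal genes, 2 were then higher and 2 lower. Of the others, 1 of 7 Kupffer cell genes was higher, 1 of 7 dendritic cell genes lower and 0 of 5 erythroid genes called. Over all genes, 10.1% were then higher and 12.9% lower. Sums at 6 h in control livers were 112 to 173 CPM for endothelial, 171 to 311 CPM for stellate cell and 2.66 to 3.57 CPM for neutrophil genes. The part of these cell markers in the mitochondrial results was not tested.

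RNAs that lack a poly(A) tail or stay in the nucleus were looked at because library preparation can change their yield. In FBXL5ΔDC livers at 6 h against 0 h, 0 of 4 replication histone genes, 0 of 2 nuclear-retained RNAs and 0 of 3 small structured RNAs were called. Over all genes, 30.1% were called in that comparison. Rn7sk, a small structured RNA picked for naming after its values were seen, stood apart in control livers at 6 h. It averaged 0.120 ± 0.0595 CPM in FBXL5ΔDC livers at 6 h, against 3.26 ± 1.62 CPM in control livers at 6 h, and 0.161 ± 0.159 CPM in FBXL5ΔDC livers and 0.115 ± 0.176 CPM in control livers at 0 h (SD, n = 3 each). Its counts were 386, 244 and 118 in the control livers at 6 h and at most 24 in every other library. It was called higher in control livers at 6 h than at 0 h (log2 4.80, adjusted p = 0.0162, edgeR) and lower in FBXL5ΔDC than in control livers at 6 h (log2 -4.74, adjusted p = 0.0276, edgeR). Leaving out replicate 3 of the control livers at 6 h, these values were 5.09 and -5.04 (adjusted p = 0.0147 and 0.00636, edgeR). Then 2 of the 3 small structured RNAs were lower in FBXL5ΔDC than in control livers at 6 h, beside 12.9% of all genes. The part of these RNAs in the mitochondrial results was not tested.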

How the data were processed

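Whole-liver RNA was sequenced in 12 libraries of 4 groups, 3 each. The authors deposited 1 table of estimated counts per gene. The submitters' processing notes name Trim Galore 0.6.6 for trimming, HISAT2 2.2.1 and the build mm10. The sources used here give no counting program, strand setting or treatment of multi-mapping reads. The deposited counts were whole, and of values from 1 to 40, 26.5% to 28.5% were multiples of 4, so they were treated as estimated counts. They needed no rounding, although the design had assumed raw counts.

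Symbols were matched to GENCODE vM21 (GRCm38; 98.1% of identifiers). Genes were filtered with filterByExpr, scaled by TMM and tested with edgeR 4.0.16 (R 4.3.3; robust quasi-likelihood, 1 fit of the 4 groups, 8 residual degrees of freedom) on 17585 genes, with Benjamini-Hochberg adjustment and a threshold of 0.05. SE is the size of the log2 change divided by the square root of F. CPM uses TMM-scaled totals. Nuclear copies were found with BLAST 2.17.0 at 99% identity and 30% of the gene or more. The fit was tested on simulated counts with less spread than these data and with changes placed only in well-counted genes. That run therefore does not bear on the lowest tRNA genes. Alternatives included other scalings, DESeq2 1.42.0, no filter, a fit to 2 groups, a replicate block, counts divided by 4 and leaving out each library. Groups came from the labels, and no column was left unmapped. No 2 libraries held the same counts.

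Every mitochondrial protein and rRNA gene was described. The tRNAs named were up to 6 called ones with the smallest p in any comparison and the 3 with the highest mean count. From each nuclear list came the 2 genes with the smallest p in FBXL5ΔDC livers at 6 h against 0 h and in FBXL5ΔDC against control livers at 6 h, with Tfam, Polrmt, Lrpprc and Ppargc1a added. Others are marked as picked after their values were seen. One gene that the rule picks is not reported here. The members, lists and tests were chosen with earlier results of these data known.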

Additional observations from a re-analysis of the deposited data

How the results depend on the processing

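No member's change reversed direction while called under any of the 22 alternatives. Class shares carry no call, and some changed direction when single libraries were left out. The share of all members in control livers at 6 h was then 0.963 to 1.09 times that at 0 h. At 0 h, the share in FBXL5ΔDC livers was 0.954 to 1.07 times that in control livers, with 0.968 to 1.22 for rRNA and 0.909 to 1.02 for tRNA genes. The nuclear and marker lists were run without replicate 3 of the control livers at 6 h, chosen after seeing the data, and not under the others. Of 42 nuclear genes picked from these lists, 38 kept their side of the threshold in control livers, 2 lost a call and 2 gained one. Between genotypes at 6 h 26 kept it, 0 lost a call and 16 gained one. None reversed. Count ratios between members were not run under the alternatives. Members called lower in control livers at 6 h against 0 h numbered 0, but 1 with upper quartile scaling, 1 with library totals, 1 with counts divided by 4 and 3 with DESeq2. Over all genes, 739 were lower in the main fit, and 938, 598, 858 and 1196 in these alternatives, in that order. For FBXL5ΔDC against control livers at 6 h, 15 were called higher and 0 lower, but 1 was lower with library totals, where the protein-gene median was 0.42. DESeq2 called 23 higher in that comparison and 7 in the interaction, and the fit to the 2 groups alone called 0 higher. The interaction could not be computed in the fit to 2 groups. The cause of these shifts was not tested.

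Leaving out 1 library at a time, members called numbered 6 to 20 higher and 1 to 3 lower in FBXL5ΔDC livers at 6 h against 0 h. They numbered 1 to 23 higher between genotypes at 6 h, 0 to 2 lower in control livers, and 0 to 16 higher in the interaction. Over all genes these ranges were, in the same order, 1849 to 3117 higher and 1960 to 3188 lower, 35 to 1873 higher, 314 to 843 lower, and 0 to 1103 higher. The protein-gene median ranged from 0.44 to 0.58, from 0.58 to 0.74, from -0.09 to 0.11 and from 0.37 to 0.60 in those comparisons, and from 0.11 to 0.32 between genotypes at 0 h. The ratio of the members' share in FBXL5ΔDC livers at 6 h ranged from 1.38 to 1.44 over FBXL5ΔDC livers at 0 h and from 1.37 to 1.44 over control livers at 6 h. For the rRNA genes these ratios ranged from 0.520 to 0.675 and from 0.733 to 0.912, and for the tRNA genes from 1.44 to 1.73 and from 1.58 to 2.05.

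The labels do not say that replicate numbers pair the samples. Correlations of same-numbered deviations from the group means lay between -0.061 and 0.029. They were not set against other-numbered pairs, so whether the samples are paired was not settled. With a replicate block, 14 members were higher and 2 lower in FBXL5ΔDC livers at 6 h against 0 h, 11 were higher between genotypes at 6 h, and 0 were called in the interaction. Over all genes, that fit called 2436 higher and 2470 lower, 196 and 547, and 4 and 24 in these comparisons.

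Over all genes, the split of calls moved with the scaling or tool. Between genotypes at 6 h, 238 were higher and 793 lower with TMM, 157 and 1774 with library totals, and 730 and 1390 with DESeq2. In control livers 1118 were higher and 739 lower with TMM, and 911 and 938 with upper quartile scaling. In the interaction 6 were higher and 45 lower, and 213 and 476 with DESeq2. Adding the nuclear copies to the members, an alternative chosen after seeing the data, gave 16 higher and 2 lower in FBXL5ΔDC livers and 14 higher between genotypes at 6 h. Over all genes, 2633 were then higher and 2648 lower in FBXL5ΔDC livers, and 234 and 793 between genotypes at 6 h. At these depths, counting error bears most on the lowest tRNA genes, such as mt-Tt and mt-Tf.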
